A study of Mus musculus with 14 samples.

Results

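Pericytes and vascular smooth muscle cells, together called mural cells, wrap the endothelium of blood vessels. The 8 genes described here mark these cells in mouse tissue: Pdgfrb, Notch3, Mcam, Cspg4, Rgs5, Abcc9, Tagln and Cnn1. They were taken as a named list, 8 of 21887 protein-coding genes. Their regions are all regions of the authors' deposited tables that overlap the gene body or the 10 kb on either side of it (mm10), which gave 214 of 1186054 regions. Of these, 98 came from the G9a table, 18 from the H3K9me2 table and 98 from the H3K27me3 table.

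Chromatin immunoprecipitation and sequencing was run on a cardiomyocyte-enriched cell preparation from mice of the strain C57BL/6J. One condition was transverse aortic constriction (TAC) for 1 week, a surgical narrowing of the aorta that loads the left ventricle, and the other was sham, which carries no treatment in the labels. Each antibody had 2 biological replicates in TAC and 2 in sham, which makes 12 of the 14 libraries. The 1 input library per condition was not used here, and whether the authors used inputs for their regions is not given. Neither age nor sex is given in the labels, nor whether animals were pooled, and the cells were enriched rather than purified. Every region carries 4 whole-number values, one per library, written as a first and a second pair, and a p-value from the authors. The tables do not say which pair is TAC and which is sham, so each difference is given as second pair against first pair, and no statement below assigns a direction to TAC. The same order of pairs was assumed in the 3 tables.

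G9a, encoded by Ehmt2, is a histone methyltransferase that places H3K9me2, a mark of silent chromatin. H3K27me3 is placed by Polycomb complexes and lies broadly over genes that a cell type keeps silent, such as lineage genes of other cells. In pericytes, PDGF-B from endothelium acts through the receptor Pdgfrb, and Notch3 receives signals from Notch ligands on neighbouring cells. Smooth muscle cells build a contractile apparatus whose genes respond to serum response factor (SRF), which binds the CArG box.

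Promoters of 300 bases, with 250 before and 50 after the annotated start (RefSeq, GRCm38.p6), were found for 6 of the 8 genes. The 4 below are shown because a listed region covers each of them in full: G9a and H3K27me3 regions at Notch3 and Cnn1, and an H3K27me3 region at Rgs5 and at Mcam. Capitals mark CG dinucleotides, the sites of DNA methylation, and each sequence runs 5′ to 3′ on the gene's strand. Notch3 is chr17:32166841-32167140 on the minus strand. Mcam is chr9:44134408-44134707, Rgs5 chr1:169655251-169655550 and Cnn1 chr9:22099003-22099302, all on the plus strand.
Notch3: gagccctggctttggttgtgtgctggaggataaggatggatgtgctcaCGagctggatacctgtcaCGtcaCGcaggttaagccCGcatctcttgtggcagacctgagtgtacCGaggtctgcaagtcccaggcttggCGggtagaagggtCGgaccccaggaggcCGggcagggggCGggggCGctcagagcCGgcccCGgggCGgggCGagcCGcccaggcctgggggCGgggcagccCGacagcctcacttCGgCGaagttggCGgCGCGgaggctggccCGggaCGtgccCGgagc
Mcam: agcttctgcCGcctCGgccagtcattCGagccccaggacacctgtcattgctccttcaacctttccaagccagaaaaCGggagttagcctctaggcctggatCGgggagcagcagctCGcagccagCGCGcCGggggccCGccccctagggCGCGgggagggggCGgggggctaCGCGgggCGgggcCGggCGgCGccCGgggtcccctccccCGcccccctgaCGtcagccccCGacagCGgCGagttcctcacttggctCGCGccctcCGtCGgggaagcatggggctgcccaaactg
Rgs5: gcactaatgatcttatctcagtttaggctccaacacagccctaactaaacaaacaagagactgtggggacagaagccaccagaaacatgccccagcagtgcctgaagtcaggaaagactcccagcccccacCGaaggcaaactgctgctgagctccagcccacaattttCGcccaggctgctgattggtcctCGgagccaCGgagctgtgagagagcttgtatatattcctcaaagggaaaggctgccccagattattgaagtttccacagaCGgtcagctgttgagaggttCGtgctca
Cnn1: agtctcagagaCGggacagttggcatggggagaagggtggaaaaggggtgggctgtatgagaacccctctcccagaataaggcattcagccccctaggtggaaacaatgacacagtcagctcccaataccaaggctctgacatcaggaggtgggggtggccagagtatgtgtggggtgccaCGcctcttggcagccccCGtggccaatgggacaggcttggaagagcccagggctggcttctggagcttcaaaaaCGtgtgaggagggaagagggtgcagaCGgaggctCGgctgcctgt

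The promoters of Notch3 and Mcam were dense in CG, those of Rgs5 and Cnn1 sparse. Notch3 held 25 and Mcam 29 CG dinucleotides, against 6 each at Rgs5 and Cnn1 and a median of 13 over 21263 promoters of the same length. Cspg4 held 17 and Abcc9 16. The CArG box, searched on both strands as CC, then 6 bases of A or T, then GG, was in none of the 6 promoters and in 1.52% of all promoters, which says only that these letters are not in these windows.

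By number of regions over the 8 genes together, H3K27me3 leaned to the second pair, and H3K9me2 to the first. Of 98 H3K27me3 regions, the authors' deposited table had 60 higher in the second pair (61.2%, against 42.7% of all listed H3K27me3 regions) and 38 higher in the first (57.3% of all). Of 98 G9a regions, 51 were higher in the second pair (52.0%, against 44.5% of all G9a regions) and 47 in the first (55.5% of all). Of 18 H3K9me2 regions, 5 were higher in the second pair (27.8%, against 44.4% of all) and 13 in the first (55.6% of all). These are counts of neighbouring regions in 8 genes, not of independent observations, and were not tested. The lean of H3K27me3 came from Pdgfrb, Notch3 and Rgs5, a split made after their values were seen. They held 49 of the 60 second-pair regions and 21 of the 38 first-pair ones, while the other 5 genes had 11 second-pair and 17 first-pair regions. For G9a, leaving out Pdgfrb brought the second-pair share to 40.8% (29 of 71 regions), below that of all regions.

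**Figure D1:**
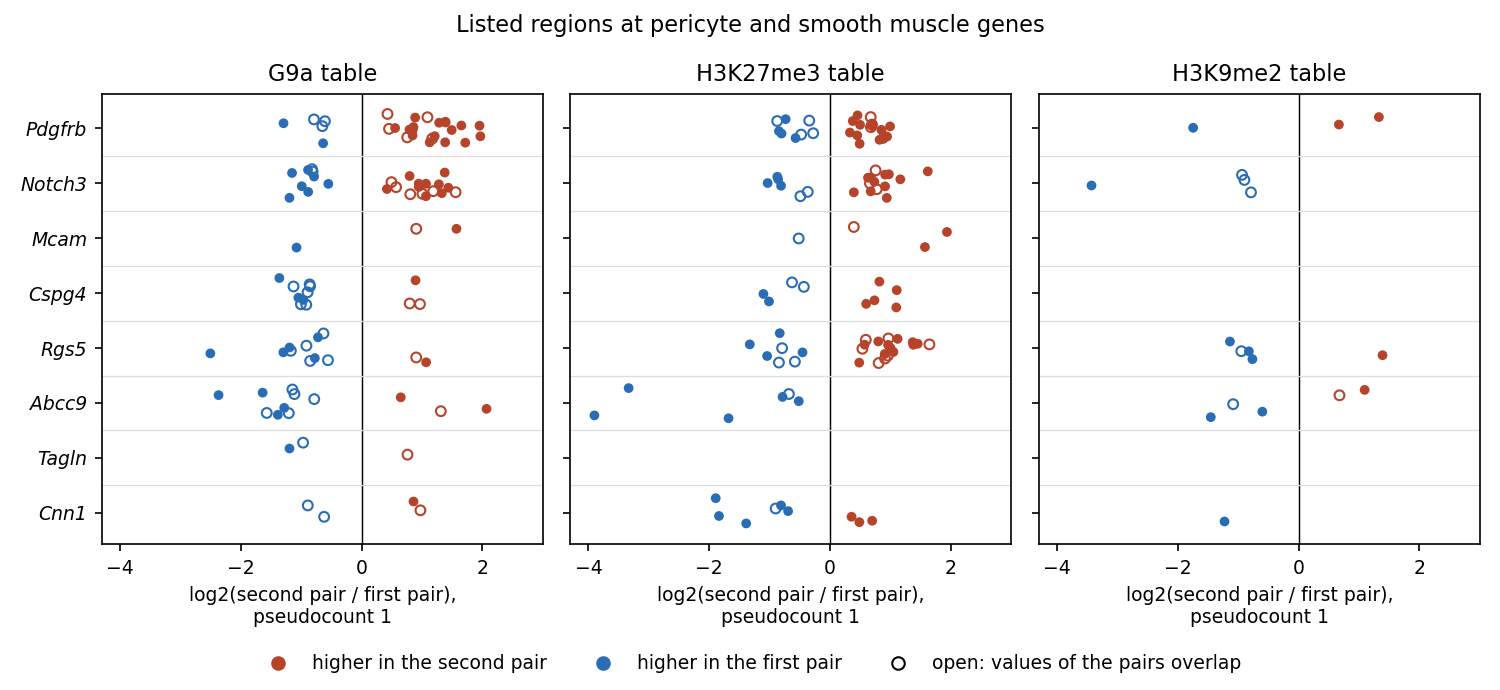
Each point is 1 listed region at 1 of the 8 genes, by its log2 difference, second pair over first, computed from the authors' deposited tables. Red points were higher in the second pair, blue ones in the first, and open points are regions whose pairs overlap in value. Red points crowd at Pdgfrb and Notch3 for G9a and at Pdgfrb, Notch3 and Rgs5 for H3K27me3, and Abcc9 has blue H3K27me3 points alone.

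Every one of the 8 genes had a G9a region higher in the second pair, as did 73.2% of all protein-coding genes, and every one had a G9a region higher in the first pair, as did 89.1%. H3K27me3 regions higher in the second pair lay at 6 of 8 genes (69.7% of all genes) and higher in the first pair at 7 of 8 (79.9%). For H3K9me2, second-pair regions lay at 3 of 8 genes (52.0%) and first-pair regions at 5 of 8 (64.7%), with no listed H3K9me2 region at Mcam, Cspg4 or Tagln. The members' windows were longer than usual, with a median of 57.4 kb against 37.2 kb, so the shares of window covered are given beside these counts. Second-pair H3K27me3 regions covered a median of 9.55% of the members' windows, against 4.97% for all genes. For second-pair G9a regions the medians were 3.54% and 2.63%, and for second-pair H3K9me2 regions 0% and 0.482%. For first-pair regions the medians were 5.73% and 5.16% for H3K27me3, 5.59% and 5.09% for G9a, and 1.03% and 1.46% for H3K9me2.

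Both values of the higher pair exceeded both of the lower pair in 46 of the 60 second-pair H3K27me3 regions, against 71.4% of all such regions, and in 24 of the 38 first-pair ones (67.6% of all). For G9a the pairs did not overlap in 33 of 51 second-pair regions (63.1% of all) and in 23 of 47 first-pair regions (59.8% of all). For H3K9me2 they did not overlap in 4 of 5 second-pair regions (66.3% of all) and in 8 of 13 first-pair ones (69.2% of all). The authors' own p was 0.01 or below in every listed region. Tested again over whole tables with limma on log2(value + 1), 0 of the members' 214 regions passed a Benjamini-Hochberg adjusted p of 0.05, as did 0.00% of all regions in each table. The lowest adjusted p among the members was 0.461 for G9a, 0.389 for H3K9me2 and 0.361 for H3K27me3. At an unadjusted limma p under 0.05 stood 1 of 98 G9a regions (3.94% of all), 1 of 18 H3K9me2 regions (8.75% of all) and 5 of 98 H3K27me3 regions (12.3% of all). With 2 libraries in each pair, an exact permutation test of 1 region cannot go below p = 0.333, two-sided. None of the differences below therefore passed a test of the spread between libraries in these data, and they rest on the authors' p.

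One G9a library stood apart. Over the whole G9a table, 9.34% of the values of library 1 of the second pair were 0, against 0.163% to 1.40% in the other 3 libraries, and its median value was 52, against 90 in library 2 of the second pair and 77 and 94 in the first pair. At the 8 genes this library was low where the first pair was higher. The direction of a region was set from pair means that include this library, so part of that contrast follows from the sorting. Over the 51 second-pair G9a regions it was not low, with a sum of 16251, against 14027 in library 2 of the second pair. Its median there was 194 per kb, against 218 in library 2. Over the 47 first-pair G9a regions its median was 30.0 per kb of region in the authors' deposited table and that of library 2 of the second pair was 134, against 165 and 195 in the first pair. It was at 10 or below in 21 of these 47 regions (44.7%, against 36.6% of all first-pair G9a regions) and at 0 in 9 of them. Without it, 41 of the 47 first-pair regions (90.1% of all) and 50 of the 51 second-pair regions (96.1% of all) kept their direction. Its part in the G9a differences was not tested otherwise.

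**Figure D2:**
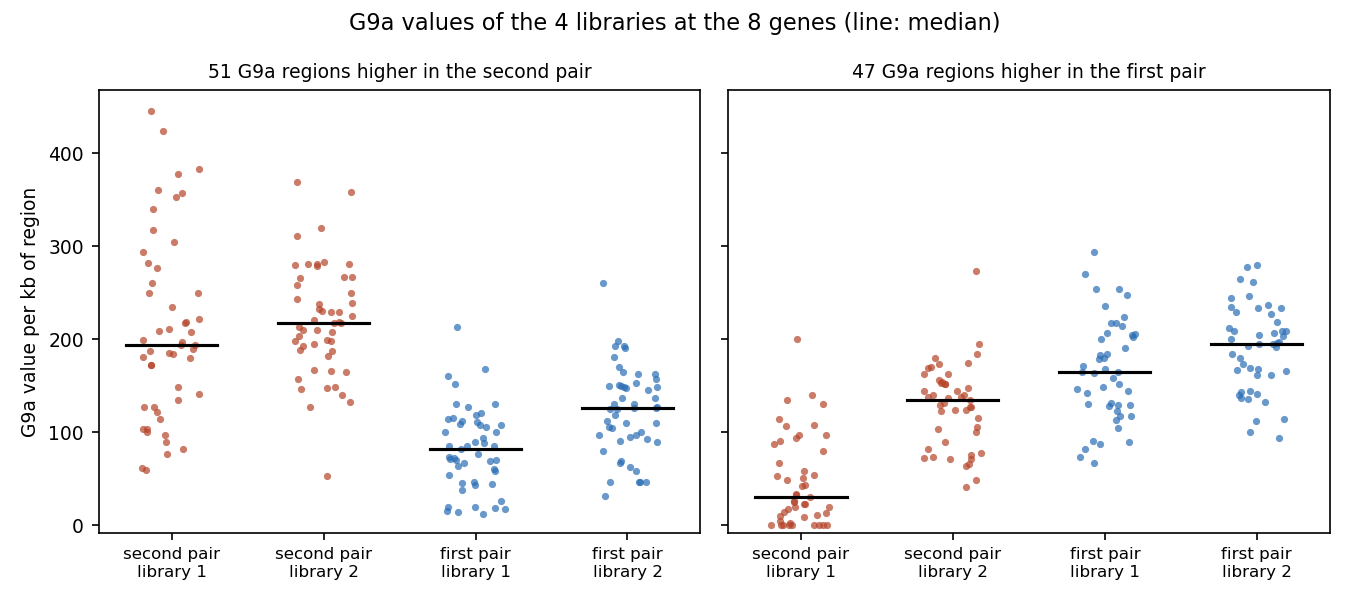
Values per kb of the 4 G9a libraries, from the authors' deposited table, in the members' 51 regions higher in the second pair (left) and 47 regions higher in the first pair (right). Each point is 1 region and each line a median. In the right panel library 1 of the second pair has a median of 30.0 and many values near 0, while library 2 of the second pair has a median of 134. Regions were sorted into the panels by pair means that include library 1, so the panels differ in it partly by that sorting.

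Pdgfrb, the receptor tyrosine kinase through which PDGF-B recruits pericytes, showed the widest differences of the 8 genes. Its body is chr18:61045127-61085067, 39.9 kb long. Second-pair G9a regions covered 62.5% of its window, a larger share than in 99.2% of protein-coding genes, and second-pair H3K27me3 regions covered 66.4%, larger than in 95.3%. G9a had 22 regions higher in the second pair and 5 in the first, and H3K27me3 had 17 and 8. Summed over all 27 listed G9a regions and divided by their length, the authors' deposited table gave 280 and 188 per kb in the second pair, against 93.7 and 130 in the first pair. For the 25 H3K27me3 regions it gave 399 and 344 per kb in the second pair, against 268 and 265 in the first pair. In both cases each second-pair library was above each first-pair library. Library 1 of the second pair changed the size of single G9a differences. Without it chr18:61053801-61057600 went from log2 1.49 to 0.77 and chr18:61049701-61051800 from 1.17 to 0.40. Others rose, as at chr18:61089301-61091250 from 1.72 to 2.13, and all 22 second-pair G9a regions kept their direction.

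The leading G9a region at Pdgfrb spanned 7300 bp over the upper-coordinate end of the gene (chr18:61078751-61086050). It had values of 2222 and 1365 in the second pair, against 600 and 769 in the first pair, in the authors' deposited table, with a log2 difference of 1.39 at a −log10 p of 109. Leaving out 1 library at a time gave log2 differences of 0.99 to 1.70 there. At the other end, the leading H3K27me3 region (chr18:61045351-61048800) had 1571 and 1470 in the second pair, against 640 and 886 in the first pair, in the authors' deposited table, with a log2 difference of 0.99. A G9a region lay within it (chr18:61045701-61048100), with 857 and 467 in the second pair, against 152 and 390 in the first pair, in the authors' deposited table (log2 1.29, from 0.76 to 2.12 with 1 library left out). The largest G9a log2 difference of the gene, 1.97, was at chr18:61059551-61060300, with 176 and 174 in the second pair and 64 and 24 in the first pair in the authors' deposited table. The strand of Pdgfrb is not in the gene table used, so which end holds the start is not said here.

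The lean at Pdgfrb had exceptions. The first-pair G9a region with the smallest p (chr18:61061951-61062750) had 70 and 62 in the second pair, against 131 and 195 in the first pair, in the authors' deposited table, with a log2 difference of -1.29 with no overlap. The first-pair H3K27me3 region with the smallest p (chr18:61068451-61069200) had 111 and 139 in the second pair, against 347 and 113 in the first pair, in the authors' deposited table (log2 -0.87). There 1 library decided the direction, since without library 1 of the first pair the difference was 0.14, and without library 2 it was -1.47. Of 3 H3K9me2 regions, the only one inside the gene (chr18:61048651-61049000) had 3 and 32 in the second pair, against 80 and 42 in the first pair, in the authors' deposited table (log2 -1.74), and without library 1 or 2 of the second pair this was -0.91 or -3.95. It overlapped a first-pair G9a region (chr18:61048601-61049200, log2 -0.65, from -1.25 to -0.12 with 1 library left out). The other H3K9me2 regions of the window lay outside the gene and were higher in the second pair without overlap. One (chr18:61034751-61035650) had 179 and 132 in the second pair, against 108 and 87 in the first pair, in the authors' deposited table (log2 0.67, and 0.43 without library 1 of the second pair). The other (chr18:61086451-61086900) had 82 and 87 in the second pair, against 10 and 56 in the first pair, in the authors' deposited table (log2 1.33, and 0.58 and 2.96 without library 1 and library 2 of the first pair). The 10 kb below the gene also hold parts of Cdx1, a homeobox gene, and Gm52351, and 4 of the G9a regions counted here lie in them. The H3K27me3 regions with the highest values of the window overlap these neighbours too, and are part of the coverage and levels given above. They are chr18:61035101-61040300 (log2 0.50) and chr18:61040701-61044450 (log2 0.45, and 0.13 without library 1 of the second pair).

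Notch3, the Notch receptor of mural cells, showed the same lean from the sequence before its start to the middle of the gene. Its body is chr17:32120820-32166896 on the minus strand, 46.1 kb long. Second-pair regions covered 25.0% of its window for G9a, more than in 89.5% of genes, and 40.9% for H3K27me3, more than in 86.4%. G9a had 16 regions higher in the second pair and 9 in the first, and H3K27me3 14 and 6. Over all its listed regions the authors' deposited table gave 165 and 201 G9a per kb in the second pair, against 116 and 157 in the first pair. For H3K27me3 it gave 377 and 336 per kb in the second pair, against 229 and 276 in the first pair. The pairs did not overlap in either, and the gap was narrower than at Pdgfrb for G9a.

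The start of Notch3 lay inside the largest H3K27me3 region of the 8 genes (chr17:32161251-32167250). It had 4606 and 3735 in the second pair, against 2614 and 3732 in the first pair, in the authors' deposited table, with a log2 difference of 0.39, with library 2 of each pair nearly equal. Without library 1 of the second pair that difference was 0.24, and without library 1 and library 2 of the first pair 0.16 and 0.67. The G9a region over the promoter (chr17:32166201-32167450) had 129 and 461 in the second pair, against 55 and 203 in the first pair, in the authors' deposited table (log2 1.19). There the pairs overlapped, and the difference was 0 without library 2 of the second pair and 2.40 without library 2 of the first pair. Larger relative differences lay on either side of the start. The H3K27me3 region with the smallest p (chr17:32156851-32160550, inside the gene) had 1175 and 1402 in the second pair, against 794 and 549 in the first pair, in the authors' deposited table (log2 0.94). The G9a region with the smallest p lay before the start (chr17:32169651-32171450) and had 394 and 378 in the second pair, against 69 and 227 in the first pair, in the authors' deposited table (log2 1.38). Without library 1 of the first pair that G9a difference was 0.76, and without library 2 it was 2.47.

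Toward the 3′ end of Notch3 the direction changed. The G9a region with the smallest p among those higher in the first pair (chr17:32134951-32136800) had 78 and 256 in the second pair, against 333 and 433 in the first pair, in the authors' deposited table, with a log2 difference of -1.19. It was -0.58 without library 1 of the second pair and -2.28 without library 2. The H3K27me3 region at the same place (chr17:32135501-32136600) had 101 and 144 in the second pair, against 235 and 211 in the first pair, in the authors' deposited table (log2 -0.86). No H3K27me3 region was listed between it and the end of the window.

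At 2 places in Notch3 the 3 tables met with opposite signs. The H3K9me2 region chr17:32150001-32150500 had 0 and 18 in the second pair, against 82 and 133 in the first pair, in the authors' deposited table, the largest H3K9me2 difference of the 8 genes (log2 -3.44 with a pseudocount of 1). The G9a region around it (chr17:32149751-32151650) had 378 and 366 in the second pair, against 178 and 127 in the first pair, in the authors' deposited table (log2 1.28). The H3K27me3 region around both (chr17:32148801-32151900) had 1254 and 1025 in the second pair, against 490 and 983 in the first pair, in the authors' deposited table (log2 0.63, and 0.21 and 1.22 without library 1 and library 2 of the first pair). All 4 H3K9me2 regions of Notch3 were higher in the first pair, and in 3 of them the pairs overlapped. The 500 bp region has low values, and its log2 difference ran from -6.76, without library 2 of the second pair, to -2.51 over the 4 libraries left out in turn. The other place was the H3K9me2 region chr17:32153401-32154400 (log2 -0.79, and 0.27 without library 2 of the first pair). It had 84 and 129 in the second pair, against 88 and 281 in the first pair, in the authors' deposited table. It overlapped second-pair regions of G9a (chr17:32153051-32154300, log2 0.50) and H3K27me3 (chr17:32153501-32155800, log2 0.68). Without library 2 of the first pair these were 0.17 and 0.35.

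**Figure D3:**
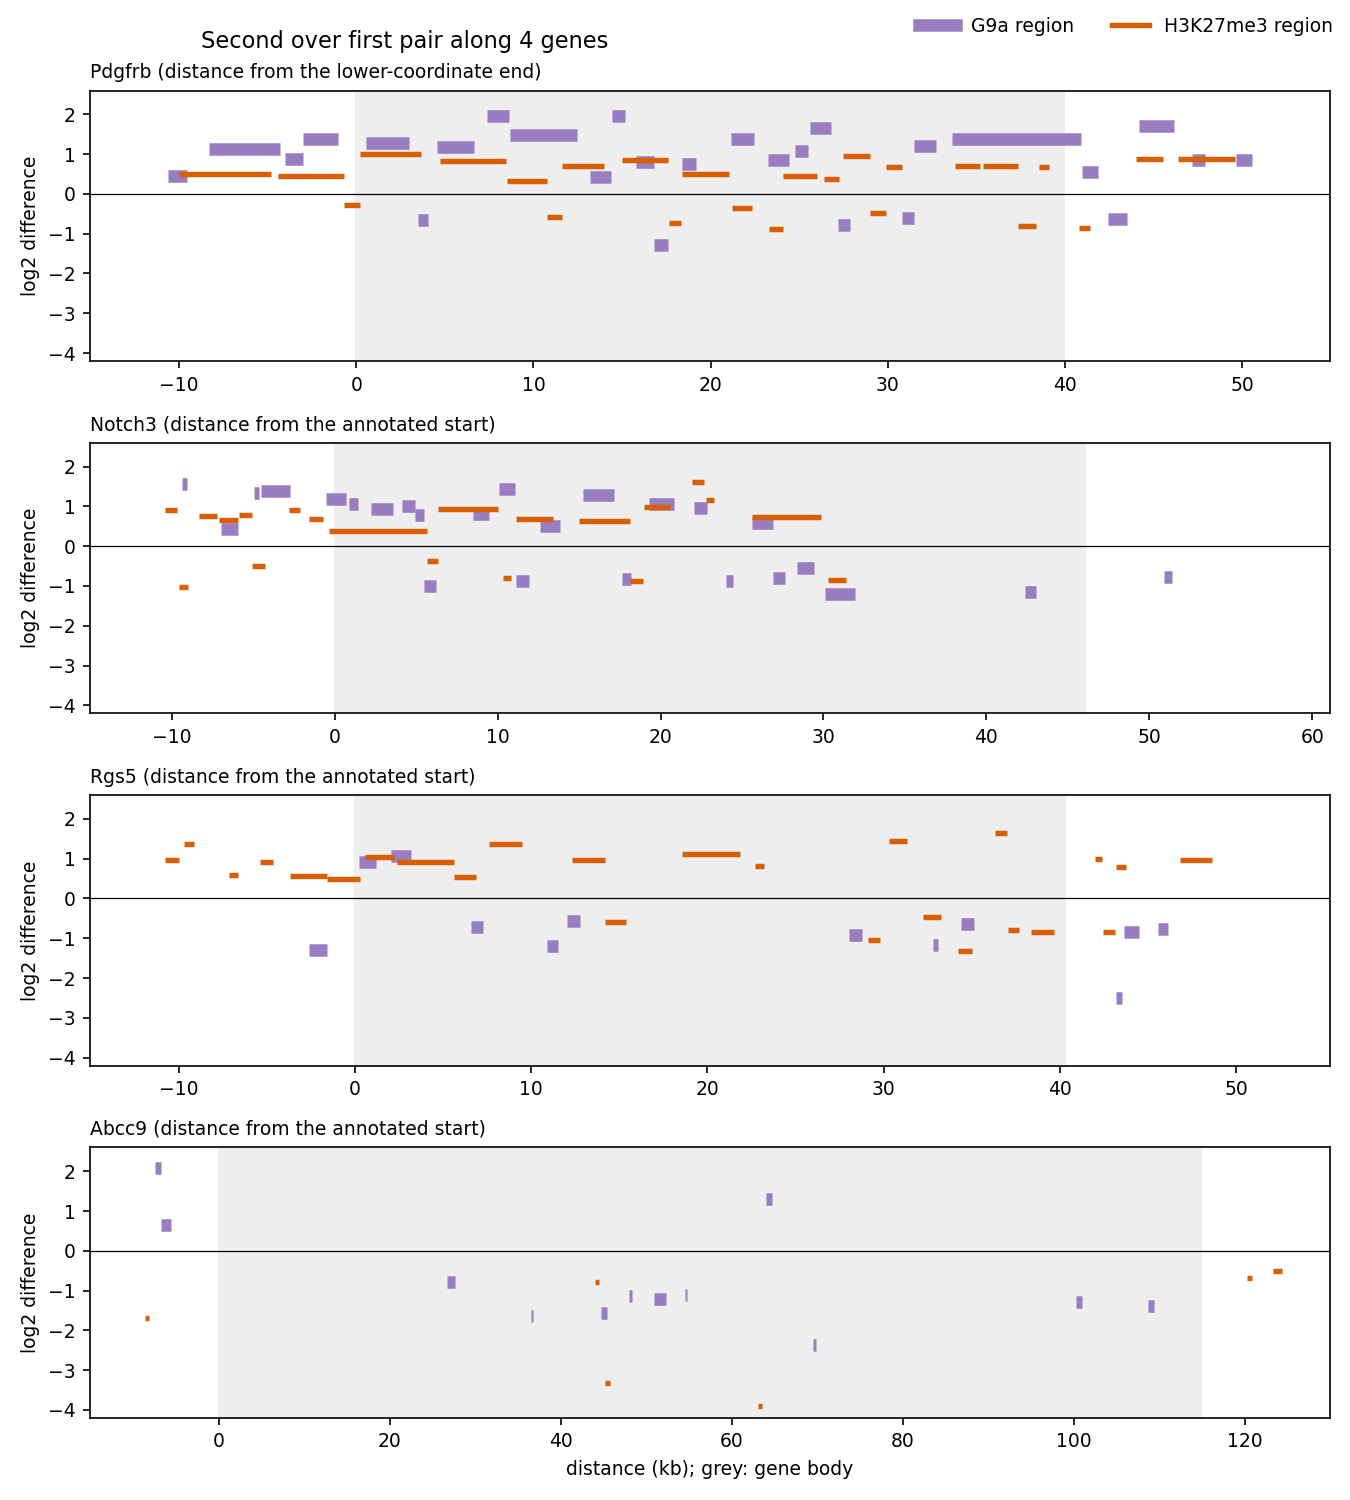
Listed regions along 4 of the genes, by distance in kb (x axis) and log2 difference, second pair over first (y axis), from the authors' deposited tables. Broad purple bars are G9a regions, narrow orange bars H3K27me3 regions, and grey is the gene body. Bars above 0 run along Pdgfrb and the first part of Notch3, Rgs5 has orange bars above 0 and purple bars mostly below, and Abcc9 has short bars, mostly below 0.

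Mcam, the adhesion molecule CD146, which endothelium carries too, had few regions, and its start was split. Its body is chr9:44134658-44142727 on the plus strand. The H3K27me3 region over the promoter shown above (chr9:44133701-44134750) had 319 and 155 in the second pair, against 367 and 313 in the first pair, in the authors' deposited table, with a log2 difference of -0.52 and overlapping pairs, which was -1.13 without library 1 of the second pair and -0.092 without library 2. The region directly after it (chr9:44134751-44135950) had 409 and 210 in the second pair, against 78 and 129 in the first pair, in the authors' deposited table (log2 1.57, no overlap). Another, further into the gene (chr9:44139601-44140000), had 73 and 78 in the second pair, against 18 and 20 in the first pair, in the authors' deposited table (log2 1.94). Its limma p was 0.0091 unadjusted and 0.361 adjusted, the lowest unadjusted one of the second-pair regions at the 8 genes. The log2 value of 1.57 was 1.01 without library 1 of the second pair. The 3 G9a regions of Mcam all lay before the gene, with log2 differences of -1.08 to 1.57, the highest of which was 0.38 without library 2 of the second pair.

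Cspg4, the NG2 proteoglycan of the pericyte surface, differed between G9a and H3K27me3. Its body is chr9:56865104-56899870 on the plus strand. G9a had 9 regions higher in the first pair and 3 in the second. Over all 12 the authors' deposited table gave 57.4 and 168 G9a per kb in the second pair, against 175 and 152 in the first pair. Library 1 of the second pair was low and library 2 lay within the range of the first pair, and library 1 was at 10 or below in 6 of the 9 first-pair regions. Without it, 8 of these 9 kept their direction. The first-pair G9a region with the smallest p (chr9:56885551-56887050) had 119 and 217 in the second pair, against 440 and 168 in the first pair, in the authors' deposited table (log2 -0.85). Without library 1 of the first pair that difference was 0, and it ran from -1.38 to 0 over the libraries left out in turn.

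H3K27me3 at Cspg4 leaned to the second pair, with 5 of 9 regions. Over all 9 the authors' deposited table gave 260 and 241 per kb in the second pair, against 167 and 183 in the first pair. The largest lay beyond the gene's 3′ end and runs past the 10 kb window (chr9:56909051-56914450), with 1778 and 1689 in the second pair, against 981 and 1100 in the first pair, in the authors' deposited table (log2 0.74). At the 3′ end itself, chr9:56899651-56900800 had 244 and 242 in the second pair, against 140 and 85 in the first pair, in the authors' deposited table (log2 1.10). No listed region of any table touched the Cspg4 promoter.

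Rgs5, a regulator that speeds the shut-off of G protein signalling and is a classic pericyte marker, had most of its H3K27me3 regions higher in the second pair and most of its G9a regions higher in the first. Its body is chr1:169655501-169695813 on the plus strand. H3K27me3 had 18 regions higher in the second pair, covering 39.7% of the window (more than in 85.9% of genes), and 7 first-pair ones. Over all 25 the authors' deposited table gave 278 and 223 H3K27me3 per kb in the second pair, against 191 and 141 in the first pair. G9a had 2 regions higher in the second pair and 10 in the first, with 56.3 and 163 per kb in the second pair, against 135 and 168 in the first pair, in the authors' deposited table. The H3K27me3 pairs did not overlap, and the G9a pairs did, library 1 of the second pair being low and library 2 within the range of the first pair. Without that low library, 7 of the 10 first-pair G9a regions kept their direction.

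From the lower edge of the Rgs5 window through the first part of the gene, 11 H3K27me3 regions followed each other, and all 11 were higher in the second pair. The one over the promoter (chr1:169653951-169655800) had 675 and 646 in the second pair, against 639 and 305 in the first pair, in the authors' deposited table (log2 0.48). Without library 2 of the first pair this difference was 0.048, and without library 1 it was 1.11. The one with the smallest p (chr1:169657901-169661100) had 1386 and 1264 in the second pair, against 626 and 788 in the first pair, in the authors' deposited table (log2 0.91, from 0.75 to 1.08 with 1 library left out). Elsewhere in the run the direction could turn. The difference at chr1:169648351-169648900 went from 0.59 to -0.48 without library 2 of the second pair. That at chr1:169661151-169662350 went from 0.54 to -0.059 without library 1 of the second pair. Both second-pair G9a regions of Rgs5 lay along this run, and the leading one (chr1:169657551-169658700) had 146 and 297 in the second pair, against 81 and 129 in the first pair, in the authors' deposited table (log2 1.07, and 0.47 without library 2 of the second pair).

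Toward the 3′ end of Rgs5, regions of both directions alternated. H3K27me3 at chr1:169689701-169690500 had 97 and 32 in the second pair, against 224 and 103 in the first pair, in the authors' deposited table (log2 -1.33). It was -0.67 without library 1 of the first pair, and -2.32 and -0.75 without library 1 and library 2 of the second pair. The largest G9a difference of the 8 genes lay beyond the 3′ end (chr1:169698701-169699050), with 5 and 17 in the second pair, against 76 and 58 in the first pair, in the authors' deposited table (log2 -2.50). An H3K27me3 region starting at the same base (chr1:169698701-169699250) ran the other way, with 108 and 97 in the second pair, against 93 and 24 in the first pair, in the authors' deposited table (log2 0.80, and 0.14 without library 2 of the first pair). H3K9me2 at Rgs5 was higher in the first pair in 4 of 5 regions, led by chr1:169686751-169687500 with 51 and 69 in the second pair, against 152 and 114 in the first pair, in the authors' deposited table (log2 -1.14).

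Abcc9, the sulfonylurea receptor subunit of ATP-sensitive potassium channels, is used by pericytes and, in another splice form, by cardiomyocytes. Its body is the longest of the 8 genes (chr6:142587862-142702766, minus strand, 114.9 kb). In contrast to the receptors, none of its 6 H3K27me3 regions was higher in the second pair, and 9 of its 12 G9a regions were higher in the first pair. Over the 6 H3K27me3 regions the authors' deposited table gave 129 and 85.8 per kb in the second pair, against 267 and 195 in the first pair, without overlap. All 6 were listed with the first pair higher, so a lower second-pair level was fixed by which regions are listed. They covered 2.71% of the window, so little of the gene is listed at all.

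The largest H3K27me3 differences of the 8 genes were inside Abcc9, in short regions. The region chr6:142639201-142639700 had 9 and 4 in the second pair, against 193 and 29 in the first pair, in the authors' deposited table (log2 -3.90, and -2.00 without library 1 of the first pair). At chr6:142657051-142657600 the values were 16 and 6 in the second pair, against 131 and 109 in the first pair, in the authors' deposited table (log2 -3.33). Its limma p was 0.0028 unadjusted, the lowest among the members, and 0.361 adjusted. A G9a region overlapping it (chr6:142657401-142658100) had 0 and 86 in the second pair, against 189 and 70 in the first pair, in the authors' deposited table (log2 -1.57), where the pairs overlapped and the difference ran from -7.03 to -0.58 with 1 library left out. Summed over the 9 first-pair G9a regions of Abcc9, library 1 of the second pair had 47 and library 2 had 827, against 959 and 1194 in the first pair, in the authors' deposited table. The size of the G9a difference at Abcc9 thus lay mostly in library 1 of the second pair, which was at 10 or below in 8 of the 9 regions, while 8 of the 9 kept their direction without it. The G9a region with the smallest p among those 9 (chr6:142650501-142651900, log2 -1.20) was at -0.42 without that library, and at -3.07 without library 2 of the second pair and -0.60 without library 2 of the first pair.

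Before the Abcc9 start, outside the gene, G9a was higher in the second pair. The region chr6:142709551-142710200 had 126 and 149 in the second pair, against 12 and 52 in the first pair, in the authors' deposited table, the largest second-pair G9a difference of the 8 genes (log2 2.07, and 3.41 without library 2 of the first pair). A short distance further, H3K27me3 at chr6:142710951-142711400 had 12 and 40 in the second pair, against 68 and 103 in the first pair, in the authors' deposited table (log2 -1.68, and -1.08 and -2.73 without library 1 and library 2 of the second pair). H3K9me2 had 2 second-pair and 3 first-pair regions in Abcc9, with log2 differences of -1.45 to 1.09. No listed region touched the Abcc9 promoter.

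The contractile genes had the fewest listed regions for G9a together with Mcam. Tagln, which encodes the actin-binding protein SM22 alpha, had 3 G9a regions and no H3K27me3 or H3K9me2 region. Its body is chr9:45929628-45936058. The second-pair region chr9:45929951-45930900, which Pcsk7 shares, had 109 and 267 in the second pair, against 102 and 119 in the first pair, in the authors' deposited table (log2 0.76). The pairs overlapped, and without library 2 of the second pair the difference was -0.020, and without library 1 it was 1.27. The first-pair region with the smallest p (chr9:45921051-45921600), within Pcsk7, had 11 and 72 in the second pair, against 87 and 107 in the first pair, in the authors' deposited table (log2 -1.21, and -0.42 and -3.03 without library 1 and library 2 of the second pair).

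Cnn1, which encodes calponin, an inhibitor of smooth muscle myosin activity, changed sign within its short body (chr9:22099221-22109221, plus strand). Over the start, H3K27me3 at chr9:22098551-22099350 had 217 and 292 in the second pair, against 203 and 160 in the first pair, in the authors' deposited table (log2 0.49, and 0.26 without library 2 of the second pair). The G9a region that covers the same promoter (chr9:22099001-22100650) had 171 and 464 in the second pair, against 174 and 148 in the first pair, in the authors' deposited table (log2 0.98). There the pairs overlapped, and without library 2 of the second pair the difference was 0.086 and without library 1 it was 1.52. Just before the start, H3K27me3 at chr9:22097701-22098350 had 47 and 36 in the second pair, against 218 and 84 in the first pair, in the authors' deposited table (log2 -1.84, and -1 without library 1 of the first pair). Toward the end of the gene, chr9:22106951-22107750 had 56 and 43 in the second pair, against 182 and 191 in the first pair, in the authors' deposited table (log2 -1.89, from -2.09 to -1.72 with 1 library left out). The only H3K9me2 region of Cnn1 overlapped it (chr9:22106801-22107250), with 27 and 37 in the second pair, against 79 and 74 in the first pair, in the authors' deposited table (log2 -1.23). H3K27me3 was thus higher in the second pair over the promoter, and lower in it just before the start and toward the end of the gene, with 3 second-pair and 6 first-pair regions in all.

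**Figure D4:**
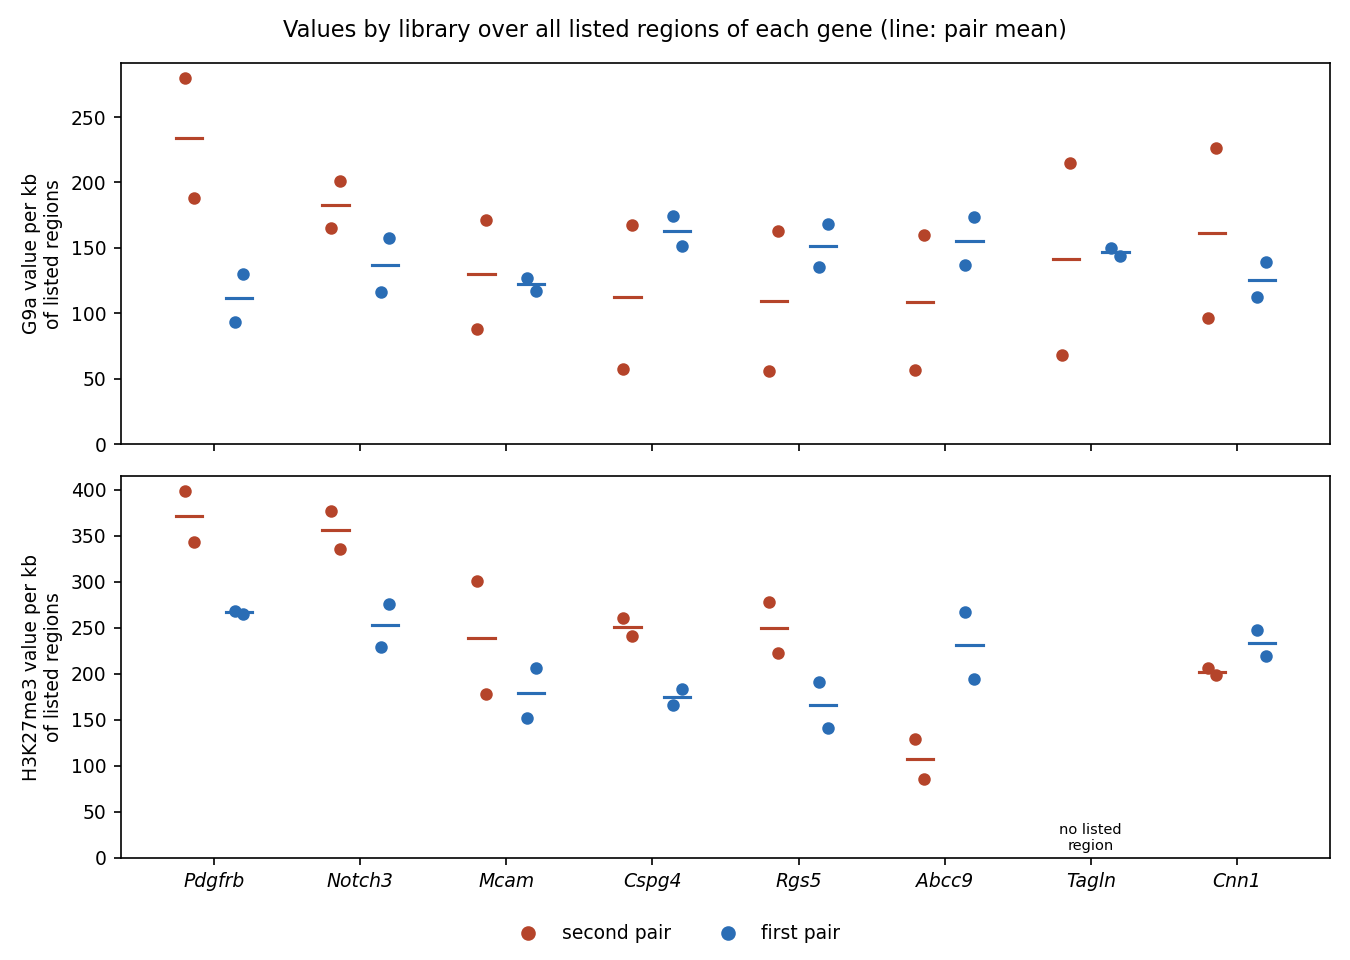
Value per kb of each library (points) over all listed regions of each gene, from the authors' deposited tables, for G9a (top) and H3K27me3 (bottom). Red is the second pair and blue the first, with library 1 left of library 2, and lines are pair means. For H3K27me3 the pairs do not overlap at Pdgfrb, Notch3, Cspg4, Rgs5, Abcc9 and Cnn1, and for G9a they do not overlap at Pdgfrb and Notch3. At Abcc9 every listed H3K27me3 region is higher in the first pair, so the direction there was fixed by which regions are listed.

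In order of H3K27me3 level, the second pair ran from 399 and 344 per kb at Pdgfrb through 377 and 336 at Notch3, 260 and 241 at Cspg4, 278 and 223 at Rgs5, 301 and 178 at Mcam and 206 and 198 at Cnn1 to 129 and 85.8 at Abcc9, in the authors' deposited table. Neighbours in this order overlapped in their libraries, except Notch3 and Cspg4, and Cnn1 and Abcc9. The first pair had 268 and 265 at Pdgfrb, 229 and 276 at Notch3, 167 and 183 at Cspg4, 191 and 141 at Rgs5, 152 and 206 at Mcam, 248 and 219 at Cnn1 and 267 and 195 at Abcc9 in the authors' deposited table. These are levels per kb of listed region only, and unlisted sequence is not in the tables.

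Regions of G9a and H3K27me3 higher in the same pair often overlapped at these genes when that pair was the second, mostly at Pdgfrb and Notch3. Of the 51 second-pair G9a regions, 36 overlapped a second-pair H3K27me3 region (70.6%, against 52.3% of all second-pair G9a regions), and of the 60 second-pair H3K27me3 regions 31 did so (51.7%, against 30.8%). Pdgfrb gave 18 of the 36, from 22 second-pair G9a regions, and Notch3 13, from 16. Elsewhere it was 2 of 2 at Rgs5 and at Cnn1, 1 of 3 at Cspg4, 0 of 2 at Mcam, 0 of 3 at Abcc9 and 0 of 1 at Tagln. The members' second-pair regions were wider than usual, and wider regions overlap more readily. Their median widths were 1050 bp against 700 bp of all for G9a, and 1325 bp against 900 bp for H3K27me3. Of the 47 first-pair G9a regions, 6 overlapped a first-pair H3K27me3 region (12.8%, against 26.1%), and 13 overlapped a second-pair one (27.7%, against 23.4%). First-pair H3K9me2 regions overlapped a second-pair H3K27me3 region in 6 of 13 cases (46.2%, against 22.8%) and a first-pair one in 1 (7.69%, against 32.5%). For G9a and H3K9me2, the mark it places, the overlaps were few. Of the 51 second-pair G9a regions 2 overlapped a second-pair H3K9me2 region (3.92%, against 10.9%), and of the 47 first-pair ones 2 overlapped a first-pair one (4.26%, against 12.2%). Of the H3K9me2 regions this was 2 of 5 second-pair ones (40%, against 17.3%) and 2 of 13 first-pair ones (15.4%, against 19.1%). Pdgfrb, Notch3 and Rgs5 hold long runs of second-pair H3K27me3, so the overlaps within a gene are not independent, and none was tested.

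At promoters, G9a regions higher in the second pair touched 2 of the 6 promoters found, Notch3 and Cnn1, against 13.3% of all genes with a promoter in the table, and first-pair ones 0 of 6, against 8.71%. Second-pair H3K27me3 regions touched 3 of 6, Notch3, Rgs5 and Cnn1, against 23.8% of genes, and first-pair ones 1 of 6, Mcam, against 7.53%. No H3K9me2 region touched any of the 6, against 2.83% of genes for the second pair and 3.25% for the first. These promoters range from 6 to 25 CG dinucleotides where the second pair was higher, and the Mcam promoter, with 29, was the one where the first pair was.

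A wider list of 40 genes related to mural cells, covering contractile proteins, pericyte markers, PDGF and Notch ligands, receptors and targets, was split more evenly. Some of these genes are not particular to mural cells, such as the endothelial Notch1 and Pdgfra, also used here as a fibroblast marker. The list had 234 H3K27me3 regions higher in the second pair and 298 in the first in the authors' deposited table, a second-pair share of 44.0% against 42.7% of all regions. For G9a the counts were 232 and 263 (46.9% second pair, against 44.5%), and for H3K9me2 75 and 129 (36.8%, against 44.4%). Notch1, the endothelial relative of Notch3, had G9a and H3K27me3 regions mostly higher in the second pair. Its leading G9a region (chr2:26478101-26492200) had 5222 and 3320 in the second pair, against 1228 and 1529 in the first pair, in the authors' deposited table (log2 1.63). Its leading H3K27me3 region (chr2:26481951-26494350) had 5817 and 5302 in the second pair, against 2777 and 3221 in the first pair, in the authors' deposited table (log2 0.89).

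Other second-pair regions of the wider list were led, for G9a, by Foxs1, a forkhead factor of pericytes (log2 1.38), Anpep, the aminopeptidase CD13 (1.36), and Myl9, a smooth muscle myosin light chain (1.45), in the authors' deposited table. Without library 1 of the second pair the G9a values were 0.38 at Anpep and 0.58 at Myl9, so these differences rest mostly on that library. For H3K27me3 they were Vtn, which encodes vitronectin (log2 0.88), Rgs4, the neighbour and relative of Rgs5 (0.79), and Anpep (0.78) in the authors' deposited table. Pdgfd, a ligand of Pdgfrb, led the regions of the wider list that were lower in the second pair, for G9a and for H3K27me3 alike. Its G9a region (chr9:6380951-6381650) had 0 and 9 in the second pair, against 182 and 141 in the first pair, in the authors' deposited table (log2 -4.88, and -7.34 without library 2 of the second pair). Its H3K27me3 region (chr9:6355251-6356650) had 53 and 15 in the second pair, against 314 and 331 in the first pair, in the authors' deposited table (log2 -3.21). The other PDGF ligands of the list had more second-pair than first-pair G9a regions, 17 and 4 at Pdgfb and 8 and 1 at Pdgfa, and 4 and 7 H3K27me3 regions at Pdgfb and 3 and 1 at Pdgfa. No difference between receptor and ligands was tested.

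The other first-pair leaders were Mrtfa, a coactivator of SRF (G9a log2 -3.43), the Notch ligand Jag1 (-2.15) and the Tek ligand Angpt1 (-4.64), and, for H3K27me3, Steap4, a metalloreductase (-1.22), the integrin Itga8 (-1.42) and the smooth muscle myosin Myh11 (-1.85), in the authors' deposited table. Single libraries carry some of these values. Without library 1 of the first pair Angpt1 was at -1.32, without library 1 and library 2 of the second pair Jag1 was at -1.19 and -6.39, and Steap4 at -1.98 and -0.73. H3K9me2 was lower in the second pair at Mrtfa (log2 -2.20), at Gucy1b1, a guanylate cyclase subunit (-3.25), at Tek, the angiopoietin receptor (-2.75), and at Pdgfd (-3.90) in the authors' deposited table. It was higher in the second pair at Anpep (log2 3.74), at Synpo2, an actin-binding protein (3.83), at another Pdgfd region (1.55) and at Angpt1 (2.68) in the authors' deposited table. With 1 library left out at a time, H3K9me2 ran from -6.03 to -1.82 at Tek, from 2.86 to 6.38 at Anpep and from 0.92 to 2.47 at that Pdgfd region. In each of these leading regions the pairs did not overlap. Kcnj8, the pore subunit that assembles with Abcc9 and lies next to it, had 7 second-pair and 4 first-pair H3K27me3 regions, unlike Abcc9 itself. Its G9a regions were 5 and 2.

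Markers of other cells that an enriched preparation could hold had listed H3K27me3 regions in both directions. A second-pair H3K27me3 region lay at 8 of 8 endothelial, 7 of 8 fibroblast and 7 of 8 leukocyte markers and at 4 of 10 cardiomyocyte markers, against 69.7% of all genes. A first-pair one lay at 8 of 8, 8 of 8 and 6 of 8 of the same lists and at 4 of 10 cardiomyocyte markers, against 79.9% of all genes. The median share of window covered by second-pair H3K27me3 regions was 33.9% for endothelial, 30.3% for fibroblast, 23.7% for leukocyte and 0% for cardiomyocyte markers, against 4.97% for all genes. For first-pair regions these medians were 13.7%, 9.56%, 13.9% and 0%, against 5.16%. By number of regions, endothelial markers had 144 second-pair and 117 first-pair H3K27me3 regions, fibroblast markers 58 and 61, leukocyte markers 72 and 92 and cardiomyocyte markers 7 and 5. Among all listed H3K27me3 regions 42.7% were higher in the second pair and 57.3% in the first. First-pair regions were thus the majority over all regions and in the fibroblast and leukocyte lists, but not in the endothelial and cardiomyocyte lists. For G9a, second-pair regions lay at 8 of 8 endothelial, 6 of 8 fibroblast, 7 of 8 leukocyte and 8 of 10 cardiomyocyte markers (73.2% of all genes), and first-pair ones at 8 of 8, 8 of 8, 8 of 8 and 8 of 10 (89.1%). In the same order, second-pair G9a regions covered medians of 29.5%, 10.2%, 11.3% and 7.33% of the windows, against 2.63% for all genes. First-pair ones covered 6.59%, 10.2%, 6.66% and 1.61%, against 5.09%. Second-pair and first-pair G9a regions numbered 195 and 81, 68 and 48, 59 and 43, and 28 and 46. The tables list differences and no levels elsewhere, so the labelled cell type could not be checked by its markers, and more cells of a type and more signal per cell cannot be told apart. The part of cell composition in the differences at the mural cell genes was not tested.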

How the data were processed

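Antibodies against G9a, against H3K9me2 and against H3K27me3 were used on chromatin of cardiomyocyte-enriched cells. BWA 0.7.10-r789, SAMtools 1.1 and the build mm10 (GRCm38) are named, per the submitters' processing notes. The caller, scaling and use of inputs behind the regions were not given in the sources used here, and the sequencing depth is unknown. Each of the 3 tables the authors deposited gives, in 1 combined field, 4 whole-number values and a −log10 p, with no library names. The deposited values could not be shown to be raw counts, so a count model foreseen for that case was not used. The 4 regions on mitochondrial DNA were left out.

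Gene bodies came from the gene table of GRCm38.p6, widened by 10000 bp, and any overlap of 1 bp counted, so a region can belong to several genes. The log2 difference is taken between the mean of the second pair and that of the first, each after adding a pseudocount of 1, and understates changes of low regions. limma 3.58.1 (R 4.3.3) was fitted to log2(value + 1) over each whole table, without further scaling, and adjusted by the Benjamini-Hochberg method, after a check on simulated data. The regions had been selected by the authors for a difference. The labels call the replicates biological but do not say whether they are separate animals, so p-values measure only the spread between these samples. The members and lists were chosen with earlier results of these data known. Named regions are, per member, table and direction, the one with the smallest deposited p, and for the wider list up to 4 genes per table and direction by the smallest p over the gene body. Other regions named were picked for their position or size after their values were seen.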

Additional observations from a re-analysis of the deposited data

How the results depend on the processing

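No paired analysis was possible because the columns carry no replicate numbers. Alternatives were other windows, overlap by midpoint, a −log10 p of 5 or more, a mean value of 50 or more, pairs that do not overlap, another pseudocount, a variance trend in limma, scaling of libraries (chosen after seeing the data for the directions), and each library left out.

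The second-pair share of member regions was 47.4% to 61.5% for G9a, 15.4% to 33.3% for H3K9me2 and 60.0% to 73.4% for H3K27me3. With the −log10 p at 5 or more, 52 G9a, 6 H3K9me2 and 64 H3K27me3 member regions remained, of 98, 18 and 98. The second-pair share for H3K27me3 was then 73.4% and that of the wider list for H3K9me2 21.8%, and 1 member had a second-pair H3K9me2 region, as in the gene body alone, against 3. In the gene body alone the wider list had 38.8% second-pair G9a regions (124 against 196). Pairs that do not overlap left 56 G9a and 12 H3K9me2 member regions.

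With 1 library left out, the wider list ranged from 41.7% to 52.9% for G9a and from 42.3% to 48.5% for H3K27me3. limma called 0 to 12 G9a member regions, the 12 without library 2 of the second pair, when 56515 of all G9a regions passed and the lone library was assumed to vary like the others. Of 37 named regions, 3 turned in direction and 1 reached 0: G9a at Cnn1 (0.30 without library 2 of the first pair; range -1.66 to 0.30), Tagln (-0.020; range -0.020 to 1.27), H3K27me3 at Pdgfrb (0.14; range -1.47 to 0.14), and G9a at Cspg4 (0; range -1.38 to 0). The cause was not tested. At 25 of 37 a left-out library moved the log2 value by over 1.5 times. Over all 214 member regions, an alternative chosen after seeing the data, this held for 168, and 33 reached 0 or turned. Of 24 regions named from the wider list 9 moved so and 0 turned. Scaling libraries to 1 median moved the median log2 difference of all regions by 0.31 for G9a, 0.17 for H3K9me2 and 0.29 for H3K27me3, in favour of the second pair, and left 51, 5 and 61 second-pair member regions. A variance trend let limma call 1 region of the whole H3K9me2 table and none at the members.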

Other observations

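The genes whose 6 shares of covered window (3 tables by 2 directions) lay nearest to the median of the 8 mural cell genes were Nae1, Ddx31, Nt5c, Fkbp7 and Ptch1, the first 4 at distances of 1.53, 1.81, 1.82 and 1.83 percentage points. Ptch1 encodes the Hedgehog receptor and Nae1 a subunit of the enzyme that activates NEDD8. The likeness is over shares of window in these tables only.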
